A study of Arabidopsis thaliana with 18 samples.

Results

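Root cultures treated with CMP for 24 h were compared with root cultures treated with fenclorim for 24 h, on 6 of the 18 arrays of the study. Fenclorim is a dichlorinated phenylpyrimidine safener, a chemical that protects rice from herbicide injury, and CMP is a second compound that the labels give only by that code. The cultures came from Arabidopsis thaliana, wild type Col-0, and carried no transgene. They were grown without light in Gamborg's B5 medium and used at 14 days of age. The groups used here are CMP at 24 h, fenclorim at 24 h, the solvent acetone at 24 h, and the same compounds and solvent at 4 h, with 3 ATH1 arrays in each. No dose is given in the labels for either compound. The replicates are numbered in the labels, which do not say whether each was a culture of its own. A p-value here therefore reflects array-to-array spread that could be technical, and the number of arrays limits the precision.

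The array carries 22746 probe sets, groups of short probes that each stand for a transcript, besides its controls. Of these, 14015 were compared, those above the 40th percentile of their array on at least 3 of the 6 arrays, and 7520 of them were named with 1 gene. All values are MAS5 signals scaled by the authors to a common mean. Differences are of mean log2 signal, CMP minus fenclorim, so a positive one means higher with CMP. Each is given ± SE, with n = 3 arrays per group. The SE and p-value come from the limma fit, which pools the variance of a probe set over all groups of the study. They therefore do not reflect the spread of the 6 compared arrays alone. A probe set was called at a limma adjusted p under 0.05, adjusted by the Benjamini-Hochberg method over all 14015. Levels of different probe sets are not comparable with each other.

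Safeners raise the enzymes with which a plant disposes of foreign and reactive chemicals. Reductases remove reactive carbonyls, glutathione transferases and UDP-dependent glycosyltransferases attach glutathione or sugar, and the sulfur assimilation pathway supplies the cysteine for glutathione. Plant cells under chemical stress are also known for changes in calcium signalling and defence, in recycling by autophagy, and in growth of the cell wall.

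The fenclorim arrays at 24 h were not alike. Replicates 1 and 3 correlated with each other at r = 0.953 over log2 signals, and replicate 2 correlated with them at 0.886 and 0.889. Replicate 2 correlated better with fenclorim replicates 1 and 2 at 4 h, at 0.931 and 0.942. The 3 CMP arrays correlated at 0.972 to 0.983. The median SD over probe sets was 0.166 log2 units among the CMP arrays and 0.366 among the fenclorim arrays. The spiked poly-A controls, added in equal amounts in the usual protocol, had mean log2 signals of 6.93, 7.01 and 6.97 with CMP, against 7.83, 7.21 and 8.04 with fenclorim. Their part in the results was not tested. Fenclorim replicate 3 at 4 h correlated at 0.934 on average with its own group, and at 0.943 and 0.924 with fenclorim replicates 3 and 1 at 24 h. Whether arrays of the 2 times had been exchanged was not tested, and the labels were kept as given. An exchange would change what the differences at 24 h and at 4 h compare.

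**Figure D1:**
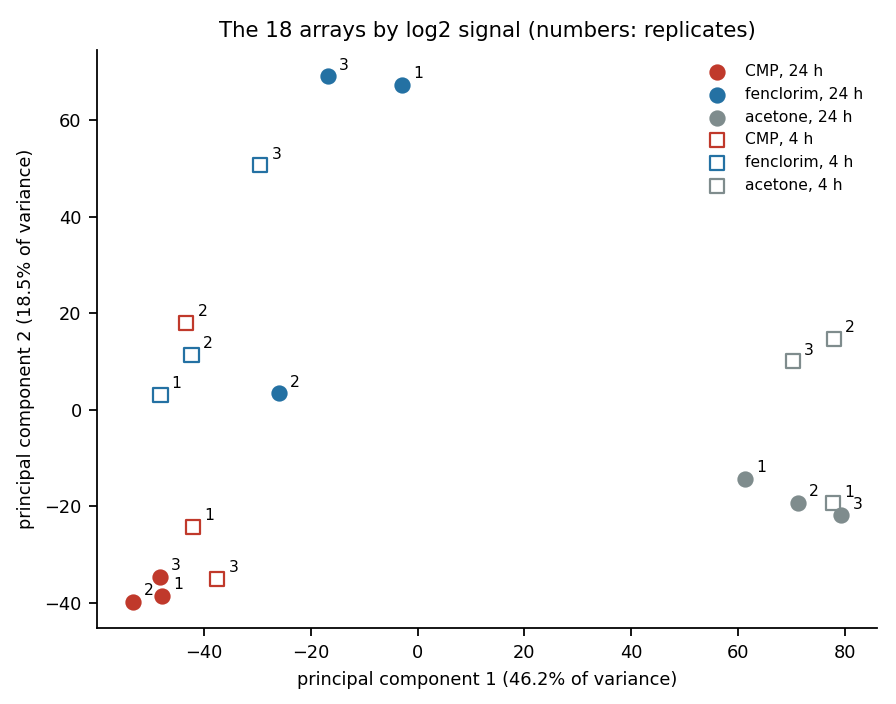
Principal components of the log2 signals of the 18 arrays, component 1 (46.2% of the variance) against component 2 (18.5%), with filled circles for 24 h, open squares for 4 h and replicate numbers beside the points. Fenclorim replicates 1 and 3 at 24 h lie at 67.3 and 69.1 on component 2, replicate 2 lies at 3.40, and the 3 CMP arrays at 24 h lie between -39.9 and -34.7.

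Between the compounds, 2601 probe sets (18.6%) were higher with CMP and 2063 (14.7%) were lower, together 33.3% of those tested. The difference was at least 2-fold for 1485 of the higher and 740 of the lower calls. The arrays of the groups did not overlap for 2344 of the higher and 1966 of the lower calls, beside 23.2% and 20% of all tested probe sets that did not overlap in those directions. Without fenclorim replicate 2, 3779 (27%) were higher and 2587 (18.5%) lower, and 2430 and 1935 were called the same way both times, with 0 called in opposite directions. The higher calls numbered 1518 without fenclorim replicate 1, 1679 without CMP replicate 1 and 1714 without CMP replicate 2, and the lower calls 1348 without fenclorim replicate 1. The median difference over all tested probe sets was 0.086. Of all calls 55.8% were higher, a share that was 47.5% after quantile normalization and 35.6% after each array was centred on its median, when the median difference was -0.016 and -0.14.

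The side of the solvent on which each compound lay varied. Among the higher calls, mean acetone signal was below both compounds for 844, between them for 1310 and above both for 447. Among the lower calls it was below both for 377, between them for 756 and above both for 930. The same counts over all tested probe sets were not made, so these are not read as particular to the called ones. Median signals of the arrays at 24 h were 40.2 to 40.8 with acetone, 32.1 to 35.0 with CMP and 27.1 to 31.5 with fenclorim. The part of this in the counts was not tested. The acetone signals are given below beside those of the compounds for the genes described in full.

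Among the 14 largest increases with CMP, AT3G61390 had signals of 627, 762 and 559 with CMP, against 24.3, 69.2 and 16.6 with fenclorim. Its acetone signals were 12.6, 5.02 and 10.6, and CMP lay above every array of both other groups. The difference was 4.41 ± 0.51 (adjusted p = 2.68e-05), 21.2-fold. AT5G66890 had 206, 301 and 218 with CMP, against 6.65, 24.7 and 5.24 with fenclorim, a difference of 4.65 ± 0.53 (adjusted p = 2.44e-05). AT5G39520 had 569, 742 and 519 with CMP, against 81.1, 29.2 and 70.9 with fenclorim, a difference of 3.45 ± 0.61 (adjusted p = 6.65e-04). The groups did not overlap for these 3 genes, and the tables used here give none of them a symbol. AT2G38240, a member of the jasmonate list, had 241, 413 and 339.9 with CMP, against 23.7, 45.7 and 15.3 with fenclorim, with acetone at 2.04, 7.97 and 1.97. It was higher with CMP by 3.67 ± 0.69 (adjusted p = 0.00107), and its fenclorim arrays also lay above every acetone array.

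Several of the largest fold values rest on fenclorim signals far below the 40th percentile of the arrays, which stood at signals of 15.0 to 18.9. AT1G76640, which encodes the calmodulin-like protein CML39, had 25.1, 44.8 and 33.6 with CMP, against 0.288, 7.59 and 0.397 with fenclorim. Its difference of 5.14 ± 1.26 (adjusted p = 0.00610) was 1.43 when 16 was added to every signal before the log2, an alternative added after the data were seen. AT1G57650 had 93.2, 119 and 97.6 with CMP, against 0.730, 8.46 and 4.32 with fenclorim, a difference of 5.11 ± 0.86 (adjusted p = 4.85e-04) that was 2.55 with the addition of 16. AT4G19370 (4.51), AT5G52770 (4.74) and AT1G68630 (4.05) were smaller as well, at 1.79, 1.66 and 1.73 with that addition. The call of AT1G68630 was lost without fenclorim replicate 3 (adjusted p = 0.0699). JRG21, named in the annotation as a jasmonate-regulated gene, had 42.7, 59.1 and 44.9 with CMP, against 0.642, 3.36 and 16 with fenclorim, a difference of 3.89 ± 0.96 (adjusted p = 0.00633). AT4G11340, AT4G39190, AT3G48650 and AT2G32140 completed the 14 largest increases, with differences of 3.79, 3.77, 3.62 and 3.38. AT3G48650 is annotated as a transcribed pseudogene, and AT4G39190 had acetone signals of 33.4, 22.2 and 23.3, close to the 31.7, 18.4 and 19.1 with CMP. Its difference from fenclorim ranged between 2.21 and 5.29 when single arrays were left out.

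Among the 14 largest decreases with CMP, AER, an alkenal reductase that detoxifies reactive carbonyls, had signals of 111, 211 and 147 with CMP, against 1307, 1106 and 927 with fenclorim. With acetone it had 62.7, 52.5 and 60.9, so both compounds lay above the solvent and fenclorim far higher. The difference was -2.87 ± 0.31 (95% interval -3.52 to -2.22, adjusted p = 1.57e-05), 7.31-fold lower with CMP. OCT5, an organic cation and carnitine transporter, had 107, 126 and 100 with CMP, against 728, 640.5 and 753 with fenclorim, with acetone at 69.9, 30.7 and 45. The difference was -2.68 ± 0.29 (adjusted p = 1.83e-05), and no CMP array reached any fenclorim array. AT5G14730 had 105, 88.2 and 96.8 with CMP, against 561, 723 and 685 with fenclorim, with acetone at 41.2, 26 and 30.1 and a difference of -2.76 ± 0.24 (adjusted p = 4.35e-06). AT1G75280, annotated as P3, had 169, 99.96 and 135 with CMP, against 614, 2565 and 921 with fenclorim, a difference of -3.11 ± 0.39 (adjusted p = 5.70e-05), and its CMP arrays were at the level of acetone, 231, 142 and 147.

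For other members of this set CMP was below the solvent. AT3G52960 had 107, 119 and 123 with CMP, against 809, 524 and 619 with fenclorim, and acetone at 383, 344 and 441 lay between them. Its difference was -2.46 ± 0.26 (adjusted p = 1.57e-05). AT3G47380 had 22.2, 22.4 and 21 with CMP, against 152, 76.8 and 177 with fenclorim, with acetone at 61.3, 57.7 and 59.2, and a difference of -2.54 ± 0.28 (adjusted p = 1.74e-05). All acetone arrays lay above CMP and below fenclorim. AT5G66985 had 11.8, 6.37 and 20.2 with CMP, against 105, 107 and 99.3 with fenclorim, with acetone at 44.1, 31.1 and 24, again between the compounds, and a difference of -3.17 ± 0.45 (adjusted p = 1.39e-04). AT1G52770 and AT2G35585 also had their 3 lowest signals with CMP, with differences of -2.85 and -2.77.

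AT1G18830, annotated with the synonym SEC31A, a coat protein name of vesicles leaving the endoplasmic reticulum, was the largest decrease. It had 6.56, 7.41 and 4.8 with CMP, against 44.6, 64.4 and 85.9 with fenclorim, a difference of -3.35 ± 0.53 (adjusted p = 3.19e-04), and acetone at 3.55, 6.56 and 3.79 lay at the level of CMP. AT4G21740 had 7.37, 14 and 8.16 with CMP, against 77.1, 65.8 and 102 with fenclorim, a difference of -3.09 ± 0.69 (adjusted p = 0.00347), with acetone at 5.86, 4.92 and 5.79. All CMP signals of both genes were at or below 14.0, under the 40th percentile of the CMP arrays, 16.9 to 18.9. The size of these differences and their rank are therefore uncertain. All fenclorim signals lay above every acetone signal. AT2G43390 (-3.04), AT5G16960 and AT5G16980 made up the set. The call of AT2G43390 was lost without CMP replicate 3 or fenclorim replicate 3 (adjusted p 0.0644 to 0.0917), and that of AT2G35585 without CMP replicate 2 or fenclorim replicate 1 or 3 (difference -2.91 to -1.13, adjusted p 0.0536 to 0.0812).

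**Figure D2:**
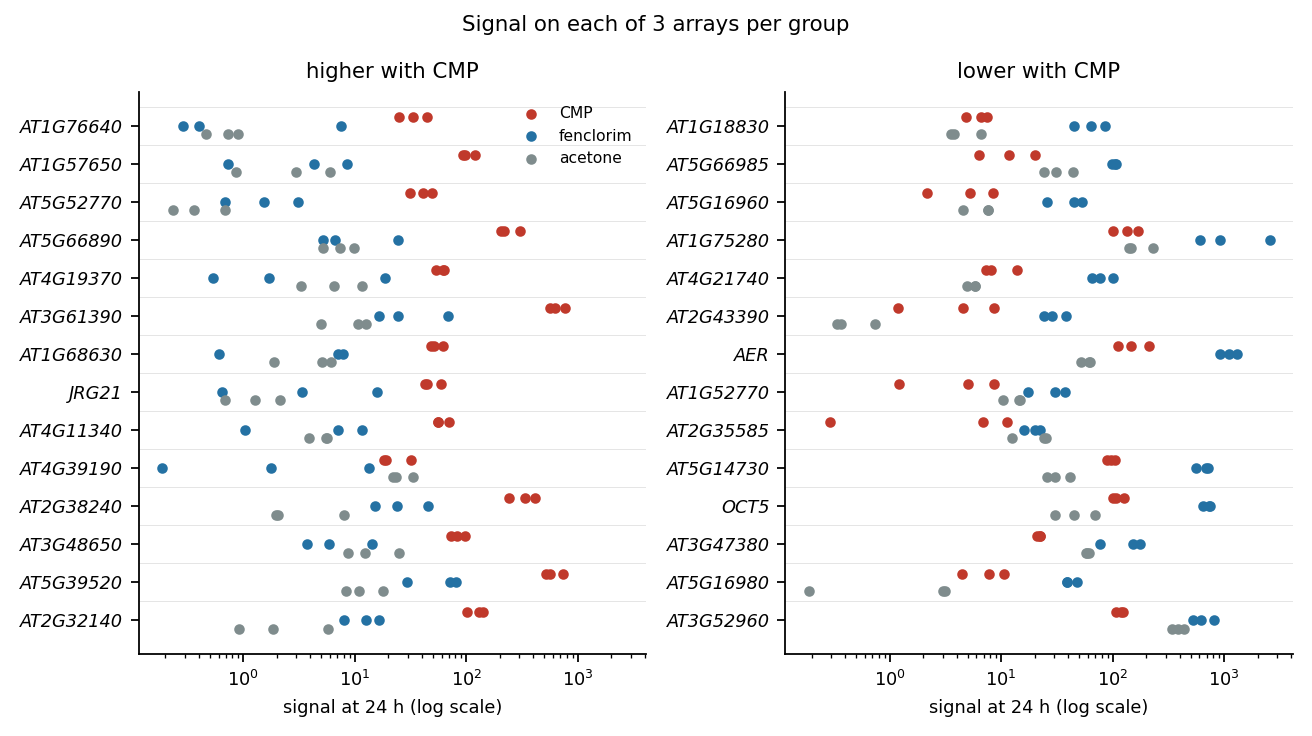
MAS5 signal at 24 h on a log axis for the 14 largest increases (left) and the 14 largest decreases (right), with 3 arrays each for CMP, fenclorim and acetone. The CMP points lie to the right of every fenclorim point in the left panel and to the left of every one in the right panel, as the choice of genes required, and the acetone points lie below, between or above them.

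Carbonyl reductases were lower with CMP or not called. Of 7 tested members, 0 were higher and 4 lower, with a median difference of -0.74 beside 0.086 over all tested probe sets, and 18.6% higher and 14.7% lower calls. Those shares over all tested probe sets stand beside every list count below, and no list was tested as a set. The list members that were lower were AER, AOR, ATB2 and AT5G16990. AT5G16960 and AT5G16980, which are not in the list, are consecutive with AER and AT5G16990 in locus number and were lower too. AT5G16960 had 8.38, 5.25 and 2.18 with CMP, against 25.8, 53.2 and 44.9 with fenclorim (difference -3.11 ± 0.54, adjusted p = 6.28e-04). AT5G16980 had 4.50, 10.7 and 7.79 with CMP, against 39.3, 39.1 and 47.5 with fenclorim (difference -2.54 ± 0.88, adjusted p = 0.0357), and AT5G16990 had a smaller difference of -0.74 ± 0.23 (adjusted p = 0.0221). The CMP signals of AT5G16960 and AT5G16980 lay below the 40th percentile of their arrays, which limits the size of their differences. Whether the probe sets of these neighbouring loci share hybridisation was not tested. AOR, a chloroplast reductase of reactive carbonyls, had 42.4, 53.7 and 53.4 with CMP, against 169, 127 and 101 with fenclorim (difference -1.39 ± 0.22, adjusted p = 2.87e-04), and acetone at 146, 161 and 207 overlapped fenclorim. ATB2, an aldo-keto reductase, differed by -0.75 ± 0.18 (adjusted p = 0.00469). The aldo-keto reductase loci beside it in number were not called. AT1G60730 had 521, 628 and 589 with CMP, against 505, 865 and 455 with fenclorim, both far above acetone at 44.5, 42 and 31.4. AT1G60750 had 142, 121 and 115 with CMP, against 49, 125 and 88.6 with fenclorim (difference 0.62 ± 0.80, adjusted p = 0.568), and acetone at 0.555, 3.11 and 6.09. The call of AT5G16980 was lost without CMP replicate 1, 2 or 3 or fenclorim replicate 1 or 3 (adjusted p 0.0532 to 0.119), and that of AT5G16990 without CMP replicate 2 or 3 or fenclorim replicate 1 or 3 (adjusted p 0.0618 to 0.0831).

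UDP-glycosyltransferases, which attach sugars to hormones, phenolics and foreign compounds, included members called in both directions. Of 34 tested, 3 were higher with CMP and 13 lower, with a median of -0.33. UGT74D1, which glucosylates auxins, had 88.7, 121 and 95.5 with CMP, against 475, 395 and 492 with fenclorim. With acetone it had 104, 91.5 and 143, at the level of CMP, and the difference was -2.17 ± 0.24 (adjusted p = 2.10e-05). Fenclorim lay apart from both other groups. UGT73B5 had 138, 131 and 119 with CMP, against 260.1, 610.2 and 358 with fenclorim, with acetone at 28.7, 16.1 and 17.4, and a difference of -1.57 ± 0.30 (adjusted p = 0.00113). Both compounds were far above the solvent, and CMP by less. UGT73B4 lay in the same order, with a difference of -2.16 ± 0.74 (adjusted p = 0.0354) whose call was lost without CMP replicate 1, 2 or 3 or fenclorim replicate 2 or 3 (adjusted p 0.0706 to 0.0851). UGT88A1 (-1.26 ± 0.24, adjusted p = 0.00101) and UGT72E1, a glucosyltransferase of lignin precursors (-1.20 ± 0.23, adjusted p = 0.00116), were lower with CMP than with both fenclorim and acetone on average.

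The flavonoid glycosyltransferases UGT78D2 (-1.47 ± 0.38, adjusted p = 0.00856) and UGT78D1 (-1.08 ± 0.40, adjusted p = 0.0482) were lower as well, and the call of UGT78D1 was lost without CMP replicate 1, 2 or 3 or fenclorim replicate 1, 2 or 3 (adjusted p 0.0568 to 0.155). IAGLU, an auxin glucosyltransferase named after its values were seen, had 202, 264 and 215 with CMP, against 653, 792 and 718 with fenclorim (difference -1.67 ± 0.22, adjusted p = 7.50e-05). Its acetone arrays, at 180.5, 124 and 147, were all below CMP. In the other direction UGT73D1 had 206, 253 and 184 with CMP, against 39.6, 55.9 and 47.5 with fenclorim, a difference of 2.17 ± 0.70 (adjusted p = 0.0255), with a call lost without CMP replicate 1, 2 or 3 or fenclorim replicate 1 or 3 (adjusted p 0.0513 to 0.0820). UGT71B6 was higher by 2.56 ± 0.86 (adjusted p = 0.0314), with a call lost without CMP replicate 1, 2 or 3 or fenclorim replicate 2 (difference 1.61 to 2.78, adjusted p 0.0547 to 0.116). Its mean log2 signal with fenclorim was 2.75, below the 40th percentile of the arrays, which limits the size of this difference. Leaving out each array in turn gave between 0 and 3 higher and between 8 and 11 lower members. The higher counts that moved by over 1.5 times were 0 without CMP replicate 1 or 3, 1 without CMP replicate 2 or fenclorim replicate 1 or 2, and the lower ones 8 without CMP replicate 1 or 3. After quantile normalization 1 was higher.

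Tau glutathione transferases, the plant class that conjugates many herbicides, were 0 higher and 3 lower of 9. GSTU25 had 38, 37.7 and 24.3 with CMP, against 92.6, 252 and 158 with fenclorim, with acetone at 17.5, 13.4 and 5.02. The difference was -2.24 ± 0.57 (adjusted p = 0.00733), with every CMP array below every fenclorim array and above every acetone array. GSTU22 had 177, 89.1 and 119 with CMP, against 303, 318 and 368 with fenclorim, a difference of -1.41 ± 0.41 (adjusted p = 0.0167) whose call was lost without CMP replicate 2 or fenclorim replicate 3 (adjusted p 0.0538 to 0.0739). GSTU20 had 63.1, 100.4 and 86.2 with CMP, against 477, 133 and 107 with fenclorim, a difference of -1.21 ± 0.41 (adjusted p = 0.0342), with fenclorim replicate 1 far above the others, and its call was lost without CMP replicate 1 or 3 or fenclorim replicate 1 (difference -1.25 to -0.55, adjusted p 0.0686 to 0.194). With acetone GSTU20 had 369, 399 and 487, above every CMP array. GSTU26 was not called (1.35 ± 0.72, adjusted p = 0.157).

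Sulfur assimilation genes gave 3 lower and 0 higher of 5. SIR, the sulfite reductase that makes sulfide for cysteine, had 375, 444 and 391 with CMP, against 1461, 1546 and 1361 with fenclorim. Acetone had 587, 436 and 528, so fenclorim stood above both, and the difference of -1.85 ± 0.14 had an adjusted p of 1.02e-06. APS3, an ATP sulfurylase at the entry of the pathway, differed by -0.73 ± 0.21 (adjusted p = 0.0150) and lost its call without CMP replicate 1 or fenclorim replicate 1 (adjusted p 0.0559 to 0.0560). BGLU28, a beta-glucosidase of sulfur-starved plants, had 13.2, 11.1 and 8.99 with CMP, against 18.8, 870.0 and 37.3 with fenclorim. Its difference of -2.95 ± 0.98 (adjusted p = 0.0301) rested on fenclorim replicate 2, and was -1.27 without it (adjusted p = 0.101). Its call was lost without CMP replicate 1, 2 or 3 or fenclorim replicate 2 (adjusted p 0.0610 to 0.101). The number of lower sulfur genes was 1 without CMP replicate 1.

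Cytochromes P450, a family of oxygenases of which 9 tested members were of the CYP71B subfamily, gave 3 higher and 1 lower of 10. Among all tested probe sets 18.6% were higher and 14.7% lower, and these small counts are not read as a result about the family. CYP71B24 had 181, 177 and 152 with CMP, against 34.5, 32.6 and 21.9 with fenclorim, with acetone at 45, 48.3 and 45.6, and a difference of 2.54 ± 0.27 (adjusted p = 1.62e-05). CYP71B23 had 586, 651 and 559 with CMP, against 163, 603 and 112 with fenclorim. Fenclorim replicate 2 was within the CMP arrays there, and the difference of 1.43 ± 0.41 (adjusted p = 0.0144) was 2.14 without it (adjusted p = 1.48e-05). The CYP71B23 call was lost without fenclorim replicate 1 or 3 (difference 0.93 to 1.20, adjusted p 0.0710 to 0.0819). CYP71B29 was higher (0.79 ± 0.21, adjusted p = 0.00910), and CYP71B5 was lower (-1.29 ± 0.31, adjusted p = 0.00564). The number of higher P450s was 5 without fenclorim replicate 2. The carboxylesterase CXE18, named after its values were seen, had 33.3, 27.2 and 29.8 with CMP, against 97.3, 132 and 166 with fenclorim (difference -2.10 ± 0.32, adjusted p = 2.46e-04), and acetone at 45.1, 32.8 and 30.6 overlapped CMP.

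Of 8 tested calmodulins and calmodulin-like proteins, which bind calcium and pass its signal on, 4 were higher and 0 lower, with a median of 0.88. CML37 had 238, 309 and 263 with CMP, against 36, 50.1 and 31.6 with fenclorim, with acetone at 11.1, 5.48 and 7.02. CMP exceeded fenclorim and fenclorim exceeded acetone on every array, and the difference was 2.80 ± 0.30 (adjusted p = 1.57e-05). CML38 had 239, 386 and 377 with CMP, against 41.6, 72.9 and 20.4 with fenclorim (difference 3.04 ± 0.48, adjusted p = 3.20e-04). CML41 differed by 1.23 ± 0.34 (adjusted p = 0.0117) and lost its call without CMP replicate 2 or fenclorim replicate 3 (adjusted p 0.0538 to 0.0600). CML38 and AT1G76640, whose low values are given above, are neighbouring loci.

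WRKY factors, regulators of defence and senescence, gave 2 higher and 0 lower of 6, and 4 higher without fenclorim replicate 2. After median centring 1 was lower. WRKY53 had 85.8, 118 and 135 with CMP, against 36.7, 27.7 and 17 with fenclorim. Acetone had 152, 132 and 107, so fenclorim was below both other groups, with a difference of 2.10 ± 0.35 (adjusted p = 4.64e-04). WRKY22 had 202, 192 and 197 with CMP, against 111, 81.4 and 95.9 with fenclorim (difference 1.05 ± 0.19, adjusted p = 8.60e-04), and acetone at 53.3, 47.5 and 51.6 was below both. Both WRKY genes were higher with CMP than with fenclorim, with acetone overlapping CMP for WRKY53 and below both compounds for WRKY22. All 3 tested glutamate receptor-like channels were higher, in a list drawn up after values had been seen. ATGLR1.2 had 75.5, 92.6 and 88.2 with CMP, against 15.9, 17.5 and 13.3 with fenclorim (difference 2.46 ± 0.30, adjusted p = 4.91e-05). GLR3.3, a channel of wound signalling, had 43.5, 44.7 and 43.6 with CMP, against 21.9, 14.6 and 13.5 with fenclorim (difference 1.43 ± 0.30, adjusted p = 0.00210), and acetone at 38, 47.8 and 52.2 overlapped CMP. The call of GLR1.4 (1.08 ± 0.35, adjusted p = 0.0256) was lost without CMP replicate 1 or 2 or fenclorim replicate 1 (adjusted p 0.0692 to 0.105) and after quantile normalization (adjusted p = 0.0604).

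Plant U-box ubiquitin ligases gave 4 higher of 5 and none lower, in a list drawn up after values had been seen. PUB23 had 57.1, 62.6 and 72.6 with CMP, against 28.1, 20.3 and 31.6 with fenclorim (difference 1.28 ± 0.25, adjusted p = 0.00137), and PUB24 had 134, 135 and 162 with CMP, against 67.6, 64.8 and 82.7 with fenclorim (difference 1.01 ± 0.16, adjusted p = 4.03e-04). Both dampen responses to microbial patterns. PUB22, another of that kind, differed by 0.68 ± 0.25 and was not called (adjusted p = 0.0504). PUB49 and PUB43 were higher by 1.72 ± 0.42 (adjusted p = 0.00612) and 1.33 ± 0.31 (adjusted p = 0.00421). SBT3.3, a subtilase of immune priming, had 629.5, 1012 and 865 with CMP, against 345, 276 and 284 with fenclorim, with acetone at 15, 19.4 and 13.5. CMP and fenclorim were both far above the solvent, and the difference of 1.45 ± 0.51 (adjusted p = 0.0378) lost its call without CMP replicate 1, 2 or 3 or fenclorim replicate 1, 2 or 3 (adjusted p 0.0521 to 0.113). CHI, annotated as a chitinase and named after its values were seen, had 892, 908 and 932 with CMP, against 254, 225 and 156 with fenclorim (difference 2.13 ± 0.35, adjusted p = 4.10e-04). In the jasmonate list 2 of 3 were higher, AT2G38240 and JRG21, and AT5G05600 was not called (0.34 ± 0.33, adjusted p = 0.432).

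Secreted enzymes of phenolic and sugar chemistry differed too. Of 5 class III peroxidases, which oxidise phenolics in the cell wall, 3 were higher and 1 was lower. PRX52 had 345, 422 and 422 with CMP, against 142, 33 and 67.3 with fenclorim, with acetone at 35, 23.1 and 27.3, and a difference of 2.53 ± 0.37 (adjusted p = 1.89e-04). Prx37 had 832, 1009 and 879 with CMP, against 231, 309.9 and 140.3 with fenclorim, with acetone at 216, 222 and 198. Fenclorim was near the solvent and CMP above it, with a difference of 2.07 ± 0.36 (adjusted p = 5.65e-04). AT2G41480 was lower (-1.28 ± 0.27, adjusted p = 0.00259), and AT5G64120 (0.63 ± 0.20, adjusted p = 0.0238) lost its call without CMP replicate 2 or 3 or fenclorim replicate 2 or 3 (adjusted p 0.0559 to 0.0752). Beta-glucosidases, which release compounds from their sugar conjugates, gave 6 higher and 1 lower of 12. Their list, too, was drawn up after values had been seen. BGLU45, a glucosidase of lignin precursors, had 68, 113 and 87.3 with CMP, against 4.47, 26.1 and 8.05 with fenclorim (difference 3.16 ± 0.61, adjusted p = 0.00127), and acetone at 7.32, 12 and 8.29 resembled fenclorim. BGLU27 was higher by 3.00 ± 0.64 (adjusted p = 0.00264), BGLU16 by 0.92 ± 0.20 (adjusted p = 0.00300) and BGLU33 by 1.36 ± 0.31 (adjusted p = 0.00356). PYK10, the root myrosinase of endoplasmic reticulum bodies, had 4323, 2677 and 3346 with CMP, against 4353, 4660.5 and 4654 with fenclorim and was not called (adjusted p = 0.0541). The lower beta-glucosidase was BGLU28, given above, and after median centring 3 members were lower. The lower count was 0 without CMP replicate 2 or 3 or fenclorim replicate 2.

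ESCRT subunits sort ubiquitinated membrane proteins into multivesicular bodies on the way to the vacuole. Of 11 tested, 9 were higher and 0 lower, with a median difference of 0.98, and 1.20 without fenclorim replicate 2. VPS60.1 had 359, 402 and 371 with CMP, against 81.3, 146 and 87.1 with fenclorim, with acetone at 121, 107 and 87. Its difference was 1.90 ± 0.22 (adjusted p = 2.44e-05), and fenclorim was near the solvent. VPS2.1, a core subunit, had 366, 377 and 386 with CMP, against 162, 218 and 121 with fenclorim (difference 1.21 ± 0.25, adjusted p = 0.00191), with acetone at 206, 215 and 208. VPS20.1 had 199.8, 197 and 218 with CMP, against 38.5, 150.0 and 28.1 with fenclorim, a difference of 1.91 ± 0.50 (adjusted p = 0.00894) in which fenclorim replicate 2 lay near CMP, and its call was lost without fenclorim replicate 3 (adjusted p = 0.0519). VPS2.2 had 22.8, 22.7 and 22.8 with CMP, against 3.24, 9.13 and 7.89 with fenclorim (difference 1.89 ± 0.36, adjusted p = 0.00110), and acetone at 50.2, 57.8 and 63.9 was above both compounds. The members not called were VPS22 (0.38) and VPS60.2 (0.54), both with positive differences. Leaving out 1 array gave between 5 and 9 higher members, with 5 without fenclorim replicate 1 or 3. This list was drawn up after values had been seen.

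Secretion genes named SEC, together with KEU and exocyst subunits, gave 5 higher and 1 lower of 12, also from a list drawn up after values had been seen. SEC1B, a Sec1/Munc18 protein that regulates vesicle fusion, had 245, 289 and 239 with CMP, against 24.7, 62.7 and 27.5 with fenclorim. Acetone was at 36.2, 55.6 and 52.4, near fenclorim, and the difference was 2.88 ± 0.40 (adjusted p = 1.34e-04). KEU, the KEULE protein of the same family needed for cytokinesis, had 337, 361 and 304 with CMP, against 40.1, 180.1 and 51.1 with fenclorim (difference 2.21 ± 0.47, adjusted p = 0.00255), and fenclorim replicate 2 was at the acetone level of 163, 199 and 189.7. SEC6, of the exocyst that tethers vesicles at the plasma membrane, differed by 1.42 ± 0.37 (adjusted p = 0.00942), with the call lost without fenclorim replicate 1 (adjusted p = 0.0565). The lower member was AT1G18830, given above, and SEC10 (-0.05 ± 0.16, adjusted p = 0.825) and EXO84B (0.04 ± 0.17, adjusted p = 0.866) were not called. The higher count was 2 without fenclorim replicate 1, 3 without CMP replicate 1, 2 or 3 or fenclorim replicate 3, and the lower count was 2 without fenclorim replicate 1.

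Autophagy genes gave 6 higher and 0 lower of 11, with a median of 0.53. ATG8 proteins are attached to the membrane that encloses cargo for the vacuole, and they differed among themselves. ATG8H had 567, 767 and 576 with CMP, against 107, 251 and 89.6 with fenclorim, with acetone at 98.2, 123 and 83.2. CMP was above every other array, by 2.24 ± 0.36 over fenclorim (adjusted p = 3.48e-04). APG8A, which is ATG8A, had 912, 1113 and 871 with CMP, against 361, 443 and 407 with fenclorim (difference 1.26 ± 0.18, adjusted p = 1.73e-04), with acetone at 442, 293 and 273. ATG8B (-0.10 ± 0.17, adjusted p = 0.656), ATG8C (0.04 ± 0.19, adjusted p = 0.898) and ATG8G (0.14 ± 0.23, adjusted p = 0.644) were not called, and their arrays overlapped between the groups. AT5G66930, which is ATG101 of the kinase complex that starts autophagy, had 219.9, 284 and 236 with CMP, against 75.2, 129 and 106 with fenclorim (difference 1.28 ± 0.21, adjusted p = 4.09e-04), with acetone at 85.1, 81.7 and 87.2. Leaving out 1 array left between 4 and 6 higher members, and median centring left 4.

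Genes in a list for the breakdown of leucine, isoleucine and valine, which also holds electron carriers, were mostly higher with CMP. Of 8 tested, 6 were higher and 0 lower, with a median of 1.41, in a list drawn up after values had been seen. IVD, isovaleryl-CoA dehydrogenase, had 448, 329.9 and 410.1 with CMP, against 60.4, 162 and 112 with fenclorim, with acetone at 102, 83.4 and 76.7. Its difference was 1.93 ± 0.33 (adjusted p = 5.66e-04), and CMP was above all arrays of both other groups. MCCA and MCCB are the subunits of methylcrotonyl-CoA carboxylase. MCCA had 435, 357 and 369 with CMP, against 66.4, 124 and 146 with fenclorim (difference 1.86 ± 0.28, adjusted p = 2.03e-04). MCCB had 373, 244 and 295 with CMP, against 109, 151 and 184 with fenclorim (difference 1.05 ± 0.23, adjusted p = 0.00274). Neither overlapped between the compounds. ETFQO, which hands electrons of this pathway to ubiquinone, had 216, 254 and 214 with CMP, against 47.2, 93 and 86.2 with fenclorim (difference 1.65 ± 0.25, adjusted p = 2.26e-04). ALDH6B2, the methylmalonate-semialdehyde dehydrogenase of valine breakdown, had 747, 725 and 911 with CMP, against 295, 385 and 391 with fenclorim (difference 1.16 ± 0.17, adjusted p = 1.91e-04). The remaining higher member was D2HGDH (1.74), with a call lost without CMP replicate 1 or fenclorim replicate 1 or 3 (adjusted p 0.0591 to 0.108). The list members that were not called were ETFALPHA (0.06) and ETFBETA (0.69).

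Other carbon genes did not share 1 direction. ICL, isocitrate lyase of the glyoxylate cycle, had 55.6, 47.6 and 44.6 with CMP, against 21.6, 292 and 475 with fenclorim, a difference of -1.56 ± 1.14 that was not called (adjusted p = 0.299). PPDK, pyruvate orthophosphate dikinase, named after its values were seen, had 1013, 1298 and 1055 with CMP, against 355, 361 and 378 with fenclorim, with acetone at 85.3, 106 and 103 (difference 1.61 ± 0.23, adjusted p = 1.62e-04). Of 6 genes of sugar transport and cleavage, 2 were higher and 1 lower. The cell wall invertase family gene cwINV6 had 177, 209.5 and 216 with CMP, against 28.7, 92.5 and 51.1 with fenclorim (difference 1.96 ± 0.47, adjusted p = 0.00507). SWEET1, a glucose transporter, was lower (-1.13 ± 0.31, adjusted p = 0.0115), with a call lost without CMP replicate 1 or fenclorim replicate 1 (adjusted p 0.0586 to 0.0616). SWEET2 was higher (0.89 ± 0.31, adjusted p = 0.0373), with a call lost without CMP replicate 1 or 3 or fenclorim replicate 1 or 2 (adjusted p 0.0584 to 0.169). Quantile normalization and median centring ended its call too. The higher count in the sugar list was 1 without CMP replicate 1 or 3 or fenclorim replicate 1 or 2, and the lower count 0 without CMP replicate 1 or fenclorim replicate 1, 2 without fenclorim replicate 2.

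**Figure D3:**
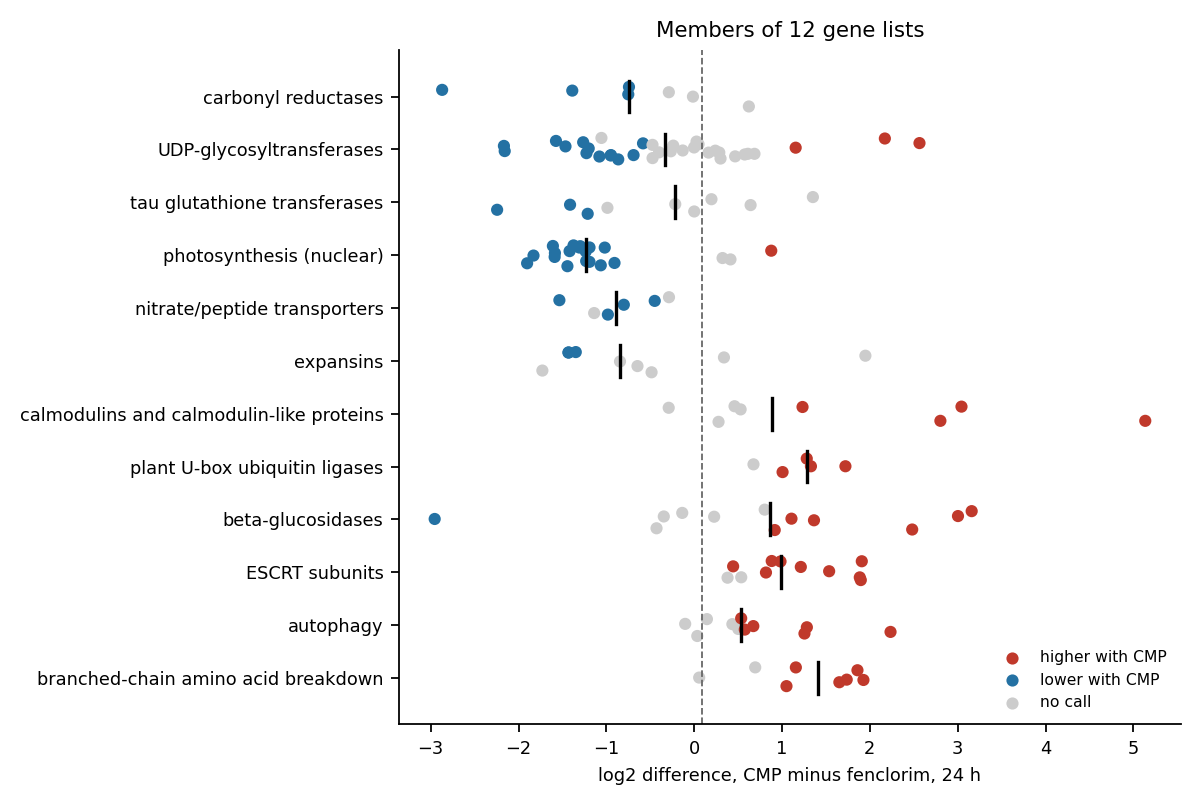
Log2 difference, CMP minus fenclorim at 24 h, for the tested members of 12 gene lists, 1 point per gene, coloured by call, with a black bar at each list's median and a dashed line at the median of all tested probe sets, 0.086. Medians run from -1.23 for nuclear photosynthesis genes to 1.41 for branched-chain amino acid breakdown. These lists, and those of U-box ligases, beta-glucosidases and ESCRT subunits, were added after values had been seen.

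Photosynthesis genes of the nucleus were lower with CMP. Of 21 tested nuclear genes of the photosystems, light harvesting and the Calvin cycle, 1 was higher and 18 were lower, with a median of -1.23. Arrays did not overlap in the lower direction for 18 members, beside 20% of all tested probe sets. The list was added after values had been seen. The leaf photosynthesis markers, 6 of which it contains, had 7 lower of 8. Although the cultures were roots in the dark, the 8 leaf markers had a median rank at the 98.3rd percentile of the acetone arrays at 24 h. Their summed signal was 2791 to 3649 with CMP, 6581 to 11437 with fenclorim and 10384 to 11796 with acetone, and none was at 0. The rank sets different probe sets against each other, so it is not a measure of transcript level alone. The sum is weighted to the brightest probe sets. Cultures with fewer plastid-rich cells and cultures with less of these transcripts per cell cannot be told apart in bulk RNA, and the part of such a shift in the other results was not tested.

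RCA, the activase of Rubisco, had 358, 517 and 593 with CMP, against 2116, 1511 and 1539 with fenclorim, with acetone at 2179, 2497 and 2761. No CMP array came near the other groups, and the difference was -1.83 ± 0.23 (adjusted p = 5.25e-05). LHCB4.2, an antenna protein of photosystem II, had 229, 324 and 309 with CMP, against 1282, 602 and 802 with fenclorim (difference -1.59 ± 0.30, adjusted p = 0.00104), with acetone at 1295, 1304 and 1529.8. CaS, the calcium-sensing protein of the thylakoid, had 61.2, 107 and 104 with CMP, against 564, 302 and 209 with fenclorim (difference -1.90 ± 0.32, adjusted p = 4.64e-04), with acetone at 479.7, 517 and 573. For each of these the lowest fenclorim array was still well above the highest CMP array. PSAE-1 of photosystem I differed by -1.42 ± 0.30 (adjusted p = 0.00254), PSBY of photosystem II by -1.37 ± 0.22 (adjusted p = 3.07e-04) and ATPC1 of the chloroplast ATP synthase by -1.23 ± 0.21 (adjusted p = 5.37e-04). The median difference from acetone over the list was -1.86 for CMP and -0.54 for fenclorim. The higher member was PGRL1B (0.88 ± 0.24, adjusted p = 0.0114), with a call lost without fenclorim replicate 3 (difference 0.57, adjusted p = 0.0623). The higher count was 0 without fenclorim replicate 3, 2 without fenclorim replicate 1. Lower members numbered between 16 and 18 when each array was left out in turn.

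**Figure D4:**
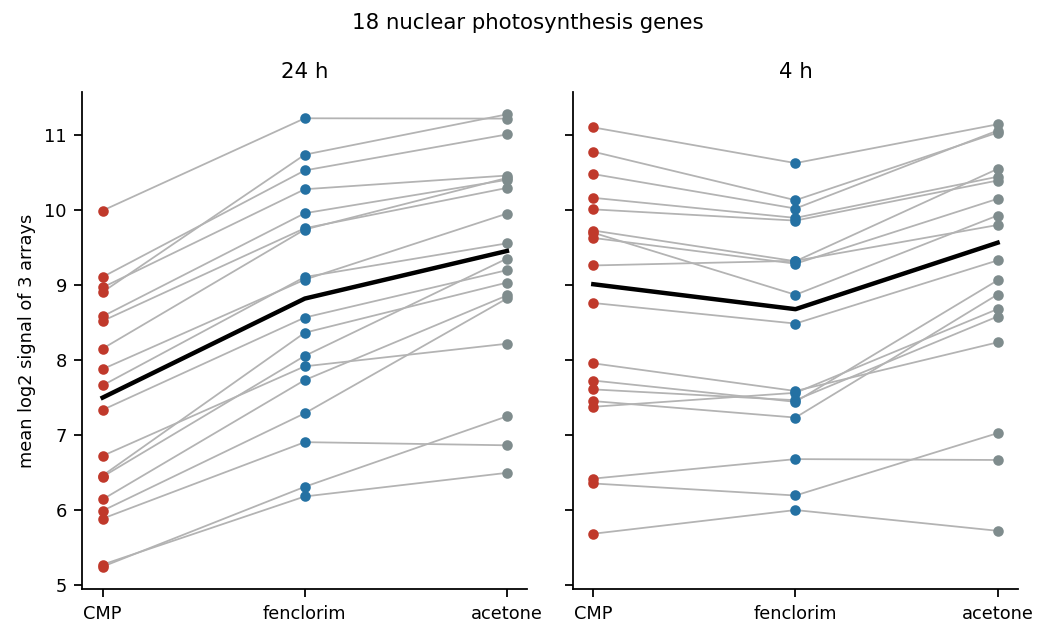
Mean log2 signal of 3 arrays for the 18 nuclear photosynthesis genes that were lower with CMP at 24 h, at 24 h (left) and at 4 h (right), with CMP, fenclorim and acetone side by side, grey lines joining each gene and the black line joining the medians. At 24 h all 18 are lowest with CMP, the fenclorim mean lies nearer to acetone than to CMP for 17, and at 4 h CMP is the lowest group for 4. The choice of genes required CMP to be below fenclorim at 24 h, which shapes these counts.

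The lists of plastid-encoded and mitochondrially encoded genes were added after values had been seen. Of 62 plastid-encoded genes tested, 10 were lower and 0 higher, with a median of -0.25. The lower share was 16.1%, near the 14.7% of all tested probe sets. rbcL, the large subunit of Rubisco, had 134, 122 and 109 with CMP, against 381, 351 and 295 with fenclorim, with acetone at 327, 253 and 273, and a difference of -1.49 ± 0.23 (adjusted p = 2.74e-04). psaJ (-1.22 ± 0.23, adjusted p = 0.00106), petB (-0.73 ± 0.15, adjusted p = 0.00229) and rpl33 (-1.35 ± 0.31, adjusted p = 0.00406) were lower too, and psaA (-0.60 ± 0.41, adjusted p = 0.270) was not called. Without fenclorim replicate 2, 12 plastid genes were higher and 11 lower. The lower count was 4 without CMP replicate 3, 5 without CMP replicate 1 or fenclorim replicate 1, and 18 after median centring. Mitochondrially encoded genes were 3 lower of 14 and 10 lower without fenclorim replicate 2, with 0 higher in both. Their lower count was 0 without CMP replicate 3 or fenclorim replicate 1 or 3, 1 without CMP replicate 1, 10 without fenclorim replicate 2.

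Genes of protein folding in the endoplasmic reticulum were divided, with 2 higher and 2 lower of 7, and 5 higher without fenclorim replicate 2. CRT1b, a calreticulin chaperone, had 469, 561 and 535 with CMP, against 1137, 1104 and 1078 with fenclorim, with acetone at 611, 628 and 577. CMP was below the solvent and fenclorim above it, with a difference of -1.09 ± 0.13 (adjusted p = 3.72e-05). BZIP60, a transcription factor spliced on folding stress, had 557, 666 and 566 with CMP, against 1206, 991 and 1042 with fenclorim, with acetone at 284, 283 and 248 below both (difference -0.86 ± 0.17, adjusted p = 0.00148). BZIP28, the membrane-bound factor of the same response, was higher by 0.44 ± 0.16 (adjusted p = 0.0444), with a call lost without CMP replicate 2 or 3 or fenclorim replicate 1 (difference 0.29 to 0.42, adjusted p 0.111 to 0.209) and after median centring. PDIL5-1 was higher by 0.74 ± 0.20 (adjusted p = 0.0111), with a call lost without fenclorim replicate 3 (adjusted p = 0.0620). The higher count was 1 without CMP replicate 2 or 3 or fenclorim replicate 1 or 3, 5 without fenclorim replicate 2.

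Nuclear genes of mitochondrial stress gave 1 higher and 1 lower of 6, near the 18.6% higher and 14.7% lower of all tested probe sets. NDB2, an external NADH dehydrogenase of mitochondria, had 106, 94.2 and 107 with CMP, against 167, 164 and 189 with fenclorim, with acetone at 60.5, 62.4 and 31.7, and a difference of -0.76 ± 0.26 (adjusted p = 0.0341) whose call was lost without CMP replicate 1, 2 or 3 or fenclorim replicate 1 or 3 (adjusted p 0.0657 to 0.0984). AT5G51440 had 94.5, 85.4 and 65.2 with CMP, against 61.4, 249 and 50.8 with fenclorim and was not called (adjusted p = 0.748). Fenclorim replicate 2 set the sign of its difference, -0.19 ± 0.41 with it and 0.53 without it. AT2G21640 was the higher member (1.39 ± 0.44, adjusted p = 0.0248), with a call lost without CMP replicate 1, 2 or 3 or fenclorim replicate 1 or 3 (difference 0.78 to 1.45, adjusted p 0.0512 to 0.138). The higher and the lower count of this list were each 0 without CMP replicate 1, 2 or 3 or fenclorim replicate 1 or 3. None of the 3 MATE efflux transporters was called at 24 h. AT2G04050 had 21, 28.7 and 27.8 with CMP, against 25.8, 63.8 and 34.4 with fenclorim at 24 h (adjusted p = 0.182) and 345, 362 and 207 with CMP, against 79.1, 71.5 and 110.1 with fenclorim at 4 h, where its difference was 1.79 ± 0.33 (adjusted p = 0.00284).

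Genes of the cell wall and growth were called in both directions. HCT, an acyltransferase of lignin synthesis, had 242, 272 and 310.0 with CMP, against 869, 696 and 904 with fenclorim, with acetone at 637, 713 and 626, and a difference of -1.58 ± 0.16 (adjusted p = 1.27e-05). Expansins, which loosen walls, gave 3 lower and 0 higher of 9. EXPA15 had 27.9, 31.1 and 33.1 with CMP, against 92.4, 62.8 and 97.3 with fenclorim (difference -1.43 ± 0.30, adjusted p = 0.00248), and EXPA9 differed by -1.35 ± 0.28 (adjusted p = 0.00215) and EXPA16 by -1.43 ± 0.31 (adjusted p = 0.00262). Fenclorim was at the acetone level for EXPA15 (81.2, 69.4 and 72.9), and CMP below it. EXLA1 (0.34 ± 0.26, adjusted p = 0.320) was not called. Without fenclorim replicate 2, 5 expansins were lower, and the higher count was 1 without fenclorim replicate 3. COB, the COBRA protein that orients cellulose, had a difference of -0.73 ± 0.17 (adjusted p = 0.00490), and CSLC5, a glucan synthase, of -0.99 ± 0.19 (adjusted p = 0.00115). Of 5 xyloglucan endotransglucosylases, which cut and join wall polymers, 2 were higher and 0 lower. XTH18 had 146, 193 and 248 with CMP, against 36.5, 176 and 66.9 with fenclorim, with acetone at 192, 241 and 224, and a difference of 1.34 ± 0.42 (adjusted p = 0.0237) whose call was lost without CMP replicate 2 or 3 or fenclorim replicate 1 or 3 (difference 0.81 to 1.33, adjusted p 0.0602 to 0.145). XTH19 (0.99 ± 0.33, adjusted p = 0.0306) was higher with CMP, though acetone, at 309, 267 and 278, was far above both, and its call was lost without CMP replicate 1 or 3 or fenclorim replicate 1, 2 or 3 (adjusted p 0.0539 to 0.107) and after both other scalings. The higher count was 0 without CMP replicate 3 or fenclorim replicate 1 or 3, 1 without CMP replicate 1 or 2 or fenclorim replicate 2, and the lower count 1 without fenclorim replicate 2. Of the other wall and growth lists, 3 of 12 trichome birefringence-like proteins and 3 of 8 IQD proteins were lower and none higher, and 1 of 5 histones was lower. Over all tested probe sets 14.7% were lower and 18.6% higher, and these small counts are not read as results about the families. The count of lower trichome birefringence-like proteins was 1 without fenclorim replicate 1, and that of higher IQD proteins was 3 without fenclorim replicate 2. The lower histone count was 2 without fenclorim replicate 2, and the higher one 1 without fenclorim replicate 1.

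All 4 called members of 6 tested in the nutrient uptake list, each of the nitrate and peptide transporter family, were lower, and 5 without fenclorim replicate 2. AT1G68570, which is NPF3.1, had 111, 118 and 126 with CMP, against 471, 234 and 362 with fenclorim (difference -1.53 ± 0.28, adjusted p = 9.34e-04), with acetone at 150.0, 216 and 261. AT1G59740, which is NPF4.3, had 25.1, 38.2 and 28.9 with CMP, against 58.2, 61.7 and 59.7 with fenclorim (difference -0.98 ± 0.25, adjusted p = 0.00701). AT2G26690, which is NPF6.2, differed by -0.80 ± 0.23 (adjusted p = 0.0150) and lost its call without fenclorim replicate 3 (adjusted p = 0.0772). GTR2, a glucosinolate importer, differed by -0.45 ± 0.14 (adjusted p = 0.0244) and lost its call without CMP replicate 1 or 3 or fenclorim replicate 1 (adjusted p 0.0557 to 0.125). GTR1 was not called (-0.29 ± 0.17, adjusted p = 0.209). In the auxin list GH3.3, which conjugates auxin to amino acids, had 69.5, 129 and 76.5 with CMP, against 179, 315 and 142 with fenclorim (difference -1.18 ± 0.33, adjusted p = 0.0119), with acetone at 24.7, 21.8 and 26.6 below both, and its call was lost without CMP replicate 1 (adjusted p = 0.0569). IAA18, an auxin-response repressor, was higher by 0.77 ± 0.19 (adjusted p = 0.00681).

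Cytoskeleton and division genes were mostly not called. Of 7 tubulins, 2 were lower. TUA6 had 582, 519.5 and 603 with CMP, against 1307, 859 and 1315 with fenclorim, with acetone at 1655, 1744 and 1844 above both compounds, and a difference of -1.01 ± 0.19 (adjusted p = 0.00132). TUB5 had 61.3, 67.2 and 69.2 with CMP, against 119, 65.7 and 82 with fenclorim, also with both compounds far below acetone (566, 553 and 705), and was not called (adjusted p = 0.151). TUB1 was not called (0.32 ± 0.28, adjusted p = 0.385). AUR1, an Aurora kinase of mitosis, had 29.3, 31.1 and 35 with CMP, against 38.7, 11.3 and 20.7 with fenclorim and was not called (adjusted p = 0.150), and neither were the other members of the cell cycle list, 3 in all. Single fenclorim arrays decided some of these: TUB5 was called lower without fenclorim replicate 2 (difference -0.58, adjusted p = 0.0281), and AUR1 was called higher without fenclorim replicate 1 (difference 1.05, adjusted p = 0.0114). The TUB1 difference was -0.03 without fenclorim replicate 2. The lower tubulin count was 1 without CMP replicate 1, 2 or 3 or fenclorim replicate 1 or 3. AT1G29660 differed by -0.79 ± 0.45 (adjusted p = 0.186) with acetone at 375, 628 and 682, and was not called. It was called without both fenclorim arrays that lay apart, replicate 2 at 24 h and replicate 3 at 4 h (difference -1.17, adjusted p = 0.0195).

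The difference between the compounds at 24 h was set against that at 4 h, which uses other arrays. At 4 h, 525 probe sets (3.75%) were higher with CMP and 564 (4.02%) lower. Of the 24 h calls, 79.2% of the higher had a positive difference at 4 h, as did 51.6% of all tested probe sets. Likewise 70.0% of the lower had a negative one, beside 48.4% of all. Of the higher calls, 319 were called the same way at 4 h and 8 the opposite way, and of the lower calls 328 and 18. The difference itself changed between 24 h and 4 h for 287 probe sets upward (2.05%) and 468 downward (3.34%). These counts depended heavily on the fenclorim arrays, with 1788 upward and 1223 downward without fenclorim replicate 2 at 24 h, 705 and 851 without fenclorim replicate 3 at 4 h, and 72 and 133 without fenclorim replicate 1 at 4 h. Leaving out any of the 12 arrays moved both counts by over 1.5 times, except fenclorim replicate 3 at 24 h and CMP replicate 3 at 4 h.

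Some differences were of like size at both times. SIR differed by -1.85 ± 0.14 at 24 h and -1.78 ± 0.14 at 4 h (adjusted p = 2.59e-06), HCT by -1.58 ± 0.16 and -1.74 ± 0.16 (adjusted p = 1.02e-05), and UGT73B5 by -1.57 ± 0.30 and -1.57 ± 0.30 (adjusted p = 0.00344). The tests of their change gave adjusted p-values of 0.837, 0.695 and 0.999 in that order, which does not show that the differences were equal. AER differed by -2.01 ± 0.31 at 4 h (adjusted p = 5.97e-04) and its change was not called (adjusted p = 0.236). Other differences changed between the times. Of the 21 nuclear photosynthesis genes, 15 had a called change to a lower difference at 24 h, beside 3.34% of all tested probe sets. The list was drawn up after the 24 h values had been seen, and the change contains those values, so the choice favours such calls. At 4 h, 1 of the 21 was called higher with CMP and 0 were called lower. RCA had 1498, 1449.6 and 1323 with CMP, against 856, 843 and 1533 with fenclorim at 4 h, and its change was -2.29 ± 0.32 (adjusted p = 0.00298). BZIP60 was higher with CMP at 4 h (0.72 ± 0.17, adjusted p = 0.0138) and lower at 24 h, a change of -1.57 ± 0.24 (adjusted p = 0.00378). ATG8H had a change of 1.96 ± 0.51 (adjusted p = 0.0354), AT5G66930 of 1.28 ± 0.30 (adjusted p = 0.0225), ETFQO of 1.59 ± 0.35 (adjusted p = 0.0180) and Prx37 of 2.89 ± 0.50 (adjusted p = 0.00625). The count of photosynthesis genes with a lower change ranged between 5 and 16 without single arrays. It was 5 without fenclorim replicate 1 at 4 h, 8 without CMP replicate 1 at 24 h and 9 without CMP replicate 1 at 4 h. The called change of ATG8H was lost without any of 8 of the 12 arrays (adjusted p up to 0.105), that of AT5G66930 without any of 5 (up to 0.0754) and that of ETFQO without fenclorim replicate 1 at 4 h (0.0652). The changes of RCA, BZIP60 and Prx37 kept their calls without any 1 array. No ESCRT subunit had a called change.

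**Figure D5:**
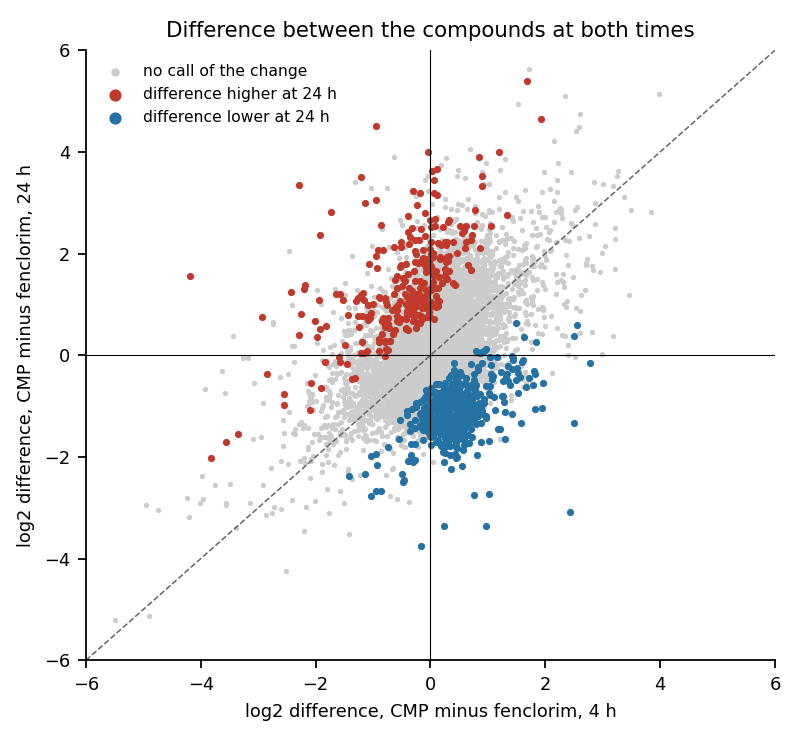
Log2 difference, CMP minus fenclorim, at 4 h (horizontal) and at 24 h (vertical) for the 14015 tested probe sets, with the 287 whose difference was higher at 24 h in red, the 468 lower at 24 h in blue, and the dashed line where both are equal. The red and blue points lie away from the dashed line, above and below it.

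Marker lists for root tissues held few named genes on this array. Of the xylem markers 1 was tested, GUT2, and it was not called (-0.23 ± 0.22, adjusted p = 0.436). No tested member was named for root hair, endodermis and suberin, phloem, root meristem or root cap, so the root label was not checked by markers beyond this. The leaf photosynthesis markers ranked high among the probe sets in the solvent, with the limit of such ranks given above.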

How the data were processed

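Gene expression was measured on 18 ATH1 arrays each with its own sample. The authors used MAS5 in GCOS, per the submitters' processing notes, and the deposited intensity values are linear MAS5 signals per probe set, with a trimmed mean of 100.01 on every array. For the software version and the target of the scaling, nothing is given in the sources used here. Of 22746 probe sets that are not controls, 13513 were named with 1 gene in the platform annotation (13436 matched to TAIR10.1), 503 had several genes and 8730 were unlisted and stay unnamed here.

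Log2 signals of all 18 arrays were fitted in limma 3.58.1 (R 4.3.3) with 1 mean per group and an intensity trend, tested on simulated data first. Counts and plots came from pandas 2.3.3, matplotlib 3.10.9 and numpy 2.4.6 under Python 3.11.15. No depth or counting interval applies to arrays. No array values were identical between samples, and no scan batch is known here.

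The named genes were the 14 largest increases and decreases among called probe sets with 1 gene (higher group above the 40th percentile, arrays not overlapping, still called without fenclorim replicate 2 at 24 h), up to 4 called members of each gene list, and 25 fixed genes, of which UGT74E2, EXPA8 and EXPA18 were not tested. A gene was represented in a list by its probe set of highest mean signal. The members and lists were chosen with earlier results of these data known. The lists of ESCRT subunits, secretion proteins, U-box ligases, beta-glucosidases, glutamate receptor-like channels, branched-chain amino acid breakdown and nuclear photosynthesis genes, and the organelle-encoded genes, were added after values had been seen, and 4 genes matched by a shared symbol only were taken out of lists. The alternatives were other scalings, offsets, filters, variance models, a replicate block and leaving out arrays. Promoter sequences were not analysed here.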

Additional observations from a re-analysis of the deposited data

Results flagged for a closer look

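The CMP minus fenclorim difference itself changed between the times for 287 probe sets that were higher at 24 h than at 4 h and for 468 that were lower. Among the genes with the largest differences at 24 h, 4 had a difference that was lower at 24 h, by the test of that change. The genes were chosen by their 24 h values, which the change contains, so the choice favours such calls in both directions. Over all tested probe sets the change was called lower for 3.34% and higher for 2.05%. The change was -5.51 for AT4G21740 (adjusted p = 0.00643), -4.32 for AT1G18830 (adjusted p = 0.00625), -2.01 for AT3G52960 (adjusted p = 0.00757) and -1.72 for AT5G14730 (adjusted p = 0.0102). At 4 h AT4G21740 had signals of 5.33, 6.82 and 7.53 with CMP, against 0.338, 1.26 and 4.19 with fenclorim. AT1G18830 had 15.2, 12.3 and 12.6 with CMP, against 6.36, 7.99 and 6.16 with fenclorim at 4 h. These 12 signals lay below the 40th percentile of their arrays, which stood at 15.2 to 18.3, so neither gene gives an order of the compounds at 4 h. With 16 added to every signal before the log2, the changes were -2.24 for AT4G21740 and -2.20 for AT1G18830. The calls of these 4 changes held without any 1 of the 12 arrays. AT5G14730 was lower with CMP at both times, with a difference of -1.04 ± 0.24 at 4 h (adjusted p = 0.0110).

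In the other direction the change was 2.73 for AT5G66890 (adjusted p = 0.0434), 3.40 for AT5G39520 (adjusted p = 0.0324), 3.55 for AT2G38240 (adjusted p = 0.0436) and 5.46 for AT4G19370 (adjusted p = 0.0252). AT5G39520 had 17.8, 31.4 and 20.7 with CMP, against 43.9, 5.43 and 43.6 with fenclorim at 4 h, and AT2G38240 had 46.2, 51.7 and 31.8 with CMP, against 130.0, 38.3 and 12.1 with fenclorim. AT5G66890 was higher with CMP at 4 h too (1.92 ± 0.53, adjusted p = 0.0337). AT4G19370 had 14.9, 5.82 and 25.6 with CMP, against 39.3, 28.6 and 14.3 with fenclorim at 4 h, and a change of 2.26 with 16 added. Of the 12 arrays, the number whose omission ended the call of the change was 10 for AT5G66890, 10 for AT2G38240, 8 for AT4G19370 and 6 for AT5G39520, with adjusted p-values up to 0.122, 0.116, 0.0812 and 0.101 in that order.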

How the results depend on the processing

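The number of probe sets higher with CMP at 24 h was 1600 with only the compared groups in the fit and 3960 without fenclorim replicate 2 at 24 h and replicate 3 at 4 h, and lay between 1518 and 3779 when single arrays were left out. The lower count was 3165 after median centring, 1275 with only the compared groups, and between 1348 and 2587 without single arrays. The 287 upward changes between the times became 178 with no filter, 171 with only the compared groups, 2466 with array weights, 2800 without both fenclorim arrays, and between 72 and 1788 without single arrays. The 468 downward ones became 220 with only the compared groups, 1693 with array weights, 1776 without both fenclorim arrays, and between 133 and 1223 without single arrays. The cause was not tested.

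Same-numbered arrays had correlations of their deviations from the group means of -0.22, 0.12 and 0.10. Those of arrays with different numbers lay between -0.28 and 0.18. With 3 arrays per group these values cannot decide whether the numbers pair the samples. With a replicate block the 24 h counts were 2304 and 1896, and the changes 163 upward and 297 downward. Of the 28 genes with the largest differences, 28 kept their call with quantile normalization, median centring, the offsets and both filters. Without fenclorim replicate 2 at 24 h 28 kept it, as the choice of these genes required. Leaving out any other single array kept 24 to 27 of the calls. Of the uncalled genes, the difference of AT5G51440 was 0.233 with array weights and 0.532 without both fenclorim arrays, and lay between -0.616 and 0.532 without single arrays. That of TUB1 was -0.0246 with array weights and -0.0272 without both, and lay between -0.0272 and 0.636 without single arrays. Signals below the 40th percentile of the arrays limit the size of the largest fold values.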

Other observations

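Some genes outside the lists, chosen after their values were seen, differed between the compounds at 24 h. FRO1, a symbol that different genes share, had 484, 668 and 529.6 with CMP, against 1272, 842 and 968 with fenclorim (difference -0.87 ± 0.17, adjusted p = 0.00151), with acetone at 537, 601 and 527. STOMAGEN, a peptide that promotes stomata, had 16, 17.4 and 27.5 with CMP, against 102, 48.6 and 52.4 with fenclorim (difference -1.69 ± 0.33, adjusted p = 0.00132), with acetone at 92.8, 63.1 and 102. AT4G01870 had 1369.8, 1939 and 1699 with CMP, against 3319, 3415 and 3396 with fenclorim (difference -1.03 ± 0.29, adjusted p = 0.0138), with acetone at 135, 104 and 51.8, and its call was lost without CMP replicate 1 (difference -0.90, adjusted p = 0.0611).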
